A study of Bos taurus with 8 samples.

Results

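The 40 genes described here copy the DNA, hold the cell at or release it from the steps of its division cycle, or carry out mitosis. They were chosen by name, as well known cell cycle and DNA replication genes, and not by their measured values. Earlier results of these data were known when they were chosen. By role, 14 act in DNA replication, 12 regulate the passage through G1 and S phase, and 14 act in or mark G2 phase and mitosis. All 40 were represented on the array, by 62 of its 43794 expression probes, and ORC1 and ORC2 were listed there under the older symbols ORC1L and ORC2L. Each gene is given by its probe of highest mean intensity. Of the 40 genes, 39 passed the limit against background, as did 11666 of the 15229 gene symbols on the array: the probe had to lie, in either dye and on at least 4 of the 8 arrays, more than 2 SD above the mean of that array's negative control spots. The gene that did not pass was CCND1, which encodes cyclin D1. Its control channel exceeded the limit on 0 of 8 arrays and its lipid channel on 2, so no ratio is given for it.

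Dividing cells license their replication origins in G1, when the origin recognition complex, CDC6 and CDT1 load the MCM helicase onto DNA. Cyclin D with CDK4 or CDK6 and then cyclin E with CDK2 commit the cell to S phase, and cyclin B with CDK1 drives it into mitosis. Early cattle embryos cleave on transcripts stored in the oocyte until their own genome is switched on around the time when the lipid was added here, and the blastocyst that forms later goes on dividing in its outer trophectoderm and in its inner cell mass.

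The samples were blastocysts of Holstein cattle produced in vitro from slaughterhouse ovaries, in pools of 10 embryos, with 4 control pools and 4 lipid pools. Both kinds shared the same culture to day 3, at the 8 to 16 cell stage. From then until day 7 the lipid pools had lipids extracted from serum in their medium and the control pools had none, and all were collected at 170 hours after fertilization. The labels list 1 supplier of albumin (Sigma) for both kinds. Each control pool was hybridised with a lipid pool on 2 arrays with the dyes Cy3 and Cy5 exchanged, and array numbers 1 to 4 occur on slide 87 and again on slide 88. Which arrays share their pools is not labelled. Arrays were therefore matched by their number, and same-numbered arrays deviated together (correlations of 0.622 to 0.769). The 2 arrays of a number were averaged and are called a pool pair, and n is 4 throughout. Ratios are lipid over control on the log2 scale, and a mean is given with the SE of the 4 pool pairs. The labels do not say that the pools came from separate cultures, so p-values measure only the spread between these pools.

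The median probe had an intensity of 230 to 324 over a local background of 19 to 22 in Cy3, and of 180 to 229 over 36 to 58 in Cy5. The number of arrays, which measured 4 pool pairs, limits the precision. On array 1 of slide 87 the background limit was high, and 20.5% of the probes exceeded it, against 55.2% to 73.6% on the others. With a limit from the median and median absolute deviation of the control spots, 79% exceeded it there, against 64.1% to 78.7% on the others. No probe on the array passed an adjusted p of 0.05 (0 of 28832, or 0%, limma with Benjamini-Hochberg adjustment, lowest adjusted p = 0.994), and 1292 (4.48%) had an unadjusted p under 0.05. Markers of the 2 blastocyst lineages were present, with 9 of 9 trophectoderm and 9 of 9 inner cell mass markers on the array past the background limit and median ratios of 0.01 and 0.06. Of 20 genes listed as markers of the follicle's cumulus and granulosa cells, 17 passed. The lipid pool of pool pair 2 stood apart in these, with a summed intensity of 49670 against 10460 to 15350 in the other lipid pools and 9890 to 19630 in the control pools, while TNFAIP6, AMH and FOXL2 did not pass the filter. In pool pair 2, 15 of the 17 had a ratio above 0. The highest were LUM (3.70), VIM (2.96) and COL3A1 (2.52), while CYP19A1 (-0.24) and HAS2 (-0.18) lay below 0. The median ratio of the 17 markers was 0.97 in pool pair 2 and -0.04, -0.03 and 0.19 in pool pairs 1, 3 and 4. This was measured beside each value of pool pair 2 given below, and its part in those values was not tested.

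Of the 39 cell cycle genes measured, 0 were called (0% of all genes, limma with adjustment over all probes). At an unadjusted p under 0.05 there was 1, ORC2, on the higher side, against 5.39% of all genes (2.73% higher and 2.67% lower). The mean ratio was above 0 for 23 of 39, against 49.8% of all genes, with a median of 0.02 against -0.00035 over all genes. A mean change of 1.5-fold or more was seen for 0 of 39 (0.789% of all genes). All 4 pool pairs had the same sign for 1 of 39, PCNA, which lay below 0, against 11.1% of all genes (5.36% above and 5.73% below 0). The 95% interval of the mean ratio lay within 1.5-fold either way for 31 of the 39 genes and within 2-fold for all 39, so larger mean differences than that fall outside the intervals, while smaller ones were not resolved. In a pool of whole embryos, fewer dividing cells and less transcript per dividing cell cannot be told apart.

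**Figure D1:**
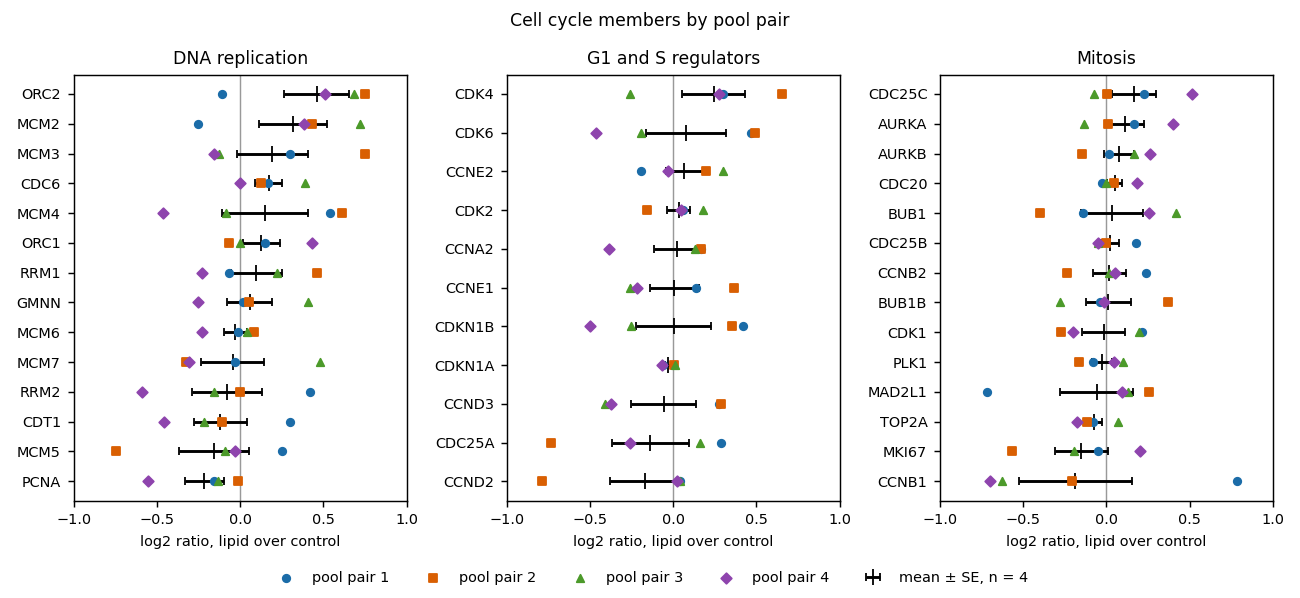
Log2 ratio of lipid over control (x axis) of each cell cycle gene (y axis) in its role group, as 1 point for each of the 4 pool pairs, with the mean and SE in black. The points of a gene fall on both sides of 0 for every gene except PCNA, and CCNB1 spans the widest range, 1.485.

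Among the genes that mark and license origins, ORC2, a subunit of the origin recognition complex, had the highest mean ratio of all 39. Its values were -0.11, 0.75, 0.68 and 0.51 in pool pairs 1 to 4, a mean of 0.46 ± 0.20 (limma unadjusted p = 0.033, adjusted p = 0.994, 95% interval 0.06 to 0.86). In pool pair 4 its 2 arrays had opposite signs, -0.15 on slide 87 and 1.17 on slide 88. On the scale of normalised log2 intensity, its control pools measured 9.84, 8.52, 8.62 and 8.79 and its lipid pools 9.73, 9.27, 9.30 and 9.30. The groups overlapped, because control pool 1 was the highest of the 8 pools. The other ORC2 probe above background had a mean ratio of -0.15 ± 0.22 and ran the other way across the pool pairs, at 0.37, 0.07, -0.41 and -0.61. The ORC2 ratio therefore rests on 1 of its probes.

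ORC1, an ATPase subunit of the same complex, had a mean ratio of 0.13 ± 0.11 and its largest value, 0.43, in pool pair 4. CDC6, the ATPase that recruits the helicase, was at 0.17, 0.13, 0.39 and -0.003 in the 4 pool pairs, with a mean of 0.17 ± 0.08 (limma unadjusted p = 0.101). In pool pairs 1, 2 and 4 its 2 arrays had opposite signs. Slide 87 read 0.58, 0.55 and -0.13 there, and slide 88 -0.24, -0.29 and 0.12. The dimmer CDC6 probe was at -0.01 ± 0.05. CDT1, the loading partner of CDC6, was dim, above the background limit on 4 lipid and 2 control channels, and had -0.12 ± 0.16. GMNN, geminin, which blocks CDT1 once replication has begun, had 0.06 ± 0.13, with pool pair 3 high (0.40) and pool pair 4 low (-0.25).

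The 6 subunits of the MCM helicase, which unwinds DNA at the fork, differed from one another across the pool pairs. MCM2 measured -0.26, 0.43, 0.72 and 0.39 in pool pairs 1 to 4, a mean of 0.32 ± 0.21 (limma unadjusted p = 0.108, interval -0.10 to 0.74). Its normalised log2 intensity was 8.00, 8.21, 8.72 and 8.92 in the control pools and 7.74, 8.64, 9.43 and 9.31 in the lipid pools, so that pool pair 1 was lowest in both groups and the groups overlapped. A second MCM2 probe had a mean of 0.23 ± 0.31, but with the pool pairs in another order (0.95, 0.47, -0.43 and -0.08). MCM3 and MCM4 were above 0 in pool pairs 1 and 2 (0.30 and 0.75 for MCM3, 0.54 and 0.61 for MCM4) and below 0 in pool pairs 3 and 4 (-0.13 and -0.16, -0.08 and -0.47). MCM5 had its one large value in pool pair 2, at -0.75, where MCM3 and MCM4 had their highest. MCM6 had the smallest spread, -0.03 ± 0.07 with an interval of -0.23 to 0.17, and MCM7 went from -0.33 in pool pair 2 to 0.48 in pool pair 3. In pool pair 4 MCM2 alone of the 6 subunits lay above 0, and the median of the 6 there was -0.19, against 0.12, 0.26 and -0.02 in pool pairs 1 to 3. On slide 87 alone, MCM3 and MCM4 measured 0.15 and 0.01 in pool pair 4.

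PCNA, the sliding clamp that holds the polymerase on DNA, was the gene with all pool pairs below 0, at -0.16, -0.02, -0.13 and -0.55. Its mean was -0.21 ± 0.12 (limma unadjusted p = 0.096, adjusted p = 0.994, interval -0.48 to 0.05). The shared sign holds for the averages of the 2 arrays and not for each array. In pool pairs 1 and 2, slide 87 read 0.02 and 0.19 and slide 88 -0.34 and -0.22. The lipid pools lay close together, at 14.09, 14.10, 14.08 and 14.16 in normalised log2 intensity, and the control pools measured 14.25, 14.12, 14.22 and 14.72. The value of pool pair 4 thus came with a control pool that was higher than the other 7 pools. All 4 PCNA probes were below 0 in pool pair 4 (-0.55, -0.30, -0.26 and -0.35), and the means of the 3 dimmer probes were -0.08 to -0.04. Apart from pool pair 4, the largest ratio of the dimmer probes in either direction was 0.11.

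The subunits of ribonucleotide reductase, which makes the deoxynucleotides, had their lowest averaged values in pool pair 4. RRM1 was at -0.06, 0.46, 0.22 and -0.23 and RRM2 at 0.42, 0.00, -0.15 and -0.59. The means were 0.10 ± 0.15 and -0.08 ± 0.21. In pool pair 4 RRM1 was below 0 on both arrays (-0.19 on slide 87 and -0.26 on slide 88), but RRM2 on slide 88 alone (0.0063 and -1.19). The RRM2 probes next in brightness had means of 0.16 ± 0.05 and 0.19 ± 0.13, and in pool pair 4 they measured 0.15 and -0.03. As for PCNA, the RRM1 level was even among the lipid pools (12.62, 12.70, 12.69 and 12.65) and varied among the control pools (12.68, 12.24, 12.47 and 12.88).

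Of the 11 G1 and S regulators measured, 7 had a mean above 0, and the median was 0.01. CDK4, the kinase partner of the D cyclins, was at 0.30, 0.65, -0.26 and 0.27, a mean of 0.24 ± 0.19 (limma unadjusted p = 0.174), and its dimmer probe was at -0.06 ± 0.06. The CDK4 ratio depended on the array: in pool pair 4 it was 0.94 on slide 87 and -0.39 on slide 88. CDK6, its close relative, had 0.08 ± 0.24, with positive values in pool pairs 1 and 2 and negative ones in 3 and 4. That split was on slide 88 alone (0.91, 0.88, -0.47 and -1.02), and slide 87 read 0.02, 0.10, 0.08 and 0.10.

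CCND2, cyclin D2, had 1 value far from the rest, -0.79 in pool pair 2, beside 0.04, 0.04 and 0.02 in pool pairs 1, 3 and 4. Both arrays of pool pair 2 gave it, at -0.84 and -0.74. The control pools measured 11.80, 12.25, 11.32 and 11.14 and the lipid pools 11.84, 11.46, 11.36 and 11.16 in normalised log2 intensity, so pool pairs 1, 3 and 4 differed from each other more than their lipid and control pools did. The mean was -0.17 ± 0.21 (limma unadjusted p = 0.348), and without pool pair 2 it was 0.03. CDC25A, the phosphatase that activates CDK2, also had its lowest value in pool pair 2 on both arrays (-0.71 and -0.76). Across pool pairs it was at 0.29, -0.73, 0.16 and -0.26, a mean of -0.14 ± 0.23, and without pool pair 2 of 0.06.

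CCNE2, cyclin E2, was at -0.20, 0.19, 0.30 and -0.03 in the pool pairs, a mean of 0.07 ± 0.11 (limma unadjusted p = 0.553). CCNE1, cyclin E1, ranged from -0.26 to 0.37 with a mean of 0.01 ± 0.15. CDK2, the kinase they activate, had 0.03 ± 0.07. CCNA2, cyclin A2, which acts through S phase into G2, was at 0.17, 0.17, 0.13 and -0.39, so that pool pair 4 alone was below 0. Among the inhibitors of these kinases, CDKN1A, p21, was at -0.03 ± 0.02 and CDKN1B, p27, at 0.00 ± 0.23. The SE of CDKN1A was narrow although its 2 arrays in pool pair 4 read 0.55 and -0.69. CCND3, cyclin D3, had -0.06 ± 0.20. CDKN1A, CDKN1B, CCND3 and CDK6 were dim, above the background limit on 3 to 5 of the 8 channels of each kind.

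The 14 mitosis genes had 8 means above 0 and a median of 0.01, and their extremes were closer to 0 than those of the replication genes, from -0.19 for CCNB1 to 0.17 for CDC25C. MKI67, the Ki-67 protein used to mark cycling cells, was at -0.05, -0.56, -0.19 and 0.20, a mean of -0.15 ± 0.16 (limma unadjusted p = 0.31, interval -0.49 to 0.19). Its lipid pools measured 7.76, 7.58, 7.68 and 7.74 in normalised log2 intensity, within the span of the control pools (7.81, 8.14, 7.87 and 7.53). CDK1, the kinase that starts mitosis, was at 0.21, -0.27, 0.20 and -0.20, a mean of -0.02 ± 0.13 with an interval of -0.31 to 0.27.

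CCNB1, cyclin B1, the partner of CDK1, had the widest spread of all 39 genes: 0.78, -0.20, -0.63 and -0.70 in pool pairs 1 to 4, a mean of -0.19 ± 0.34. Most of that spread was on slide 88, where the 4 arrays read 1.33, -0.13, -0.94 and -1.34, against 0.24, -0.28, -0.31 and -0.06 on slide 87. The sign was the same on both slides in each pool pair. CCNB2, cyclin B2, stayed within -0.23 to 0.24 and had a mean of 0.02 ± 0.10.

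CDC25C, the phosphatase that activates CDK1, was at 0.22, 0.00, -0.07 and 0.51, a mean of 0.17 ± 0.13 (limma unadjusted p = 0.207). AURKA, Aurora A, a kinase of the spindle poles, was at 0.16, 0.01, -0.14 and 0.40, a mean of 0.11 ± 0.12. Both had their highest value in pool pair 4, on each of its arrays. AURKB, Aurora B, which corrects kinetochore attachment, had 0.07 ± 0.09, and its dimmer probes 0.17 ± 0.16 and 0.24 ± 0.11. PLK1, the polo kinase, which was dim, had -0.03 ± 0.06. This SE was narrow although its 2 arrays had opposite signs in every pool pair, such as -0.48 and 0.33 in pool pair 1. TOP2A, the topoisomerase that untangles sister chromatids, had -0.08 ± 0.05, at -0.08, -0.12, 0.07 and -0.17, but its sign differed between slide 87 (0.08) and slide 88 (-0.23).

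The spindle checkpoint genes, which delay anaphase until all chromosomes are attached, had means near 0 with opposite single values. MAD2L1, the MAD2 protein, was at -0.72 in pool pair 1 and at 0.25, 0.13 and 0.09 in the others, and its 2 arrays in pool pair 1 read -0.66 and -0.77. In normalised log2 intensity, lipid pool 1 (13.38) was the lowest of the 8 pools, and control pool 1 measured 14.09. BUB1 was at -0.14, -0.40, 0.42 and 0.26, and BUB1B, BUBR1, at -0.04, 0.37, -0.28 and -0.02. These kinases had opposite signs in pool pairs 2 and 3, on both arrays of each. CDC20, which activates the anaphase ligase after the checkpoint, had 0.05 ± 0.05, and CDC25B, a CDK-activating phosphatase of the same family as CDC25C, 0.02 ± 0.05.

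**Figure D2:**
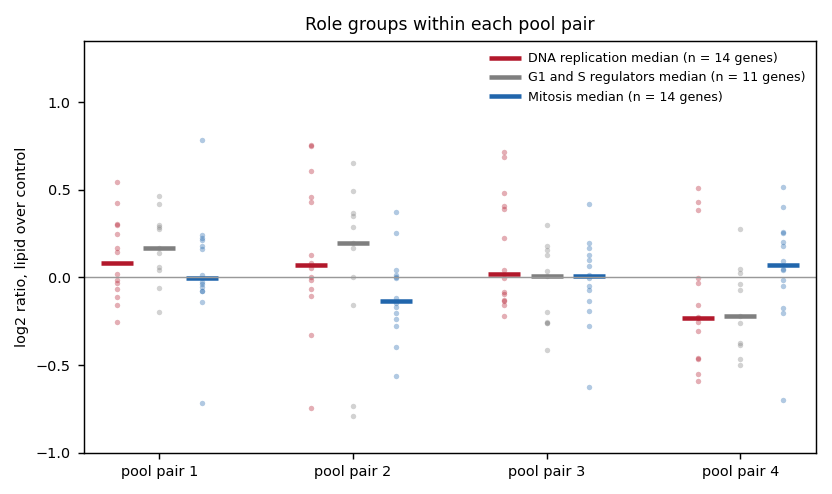
Log2 ratio of lipid over control (y axis) of the genes of each role group (points) in each pool pair (x axis), with the group median as a bar. The replication median lies above the mitosis median in pool pairs 1 to 3 and below it in pool pair 4, where the medians are -0.23 and 0.07.

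Replication and mitosis genes were compared by their medians, as a description without a test. Over the 4 pool pairs the replication genes had a median of 0.08, with 8 above and 6 below 0, and the mitosis genes 0.01, also with 8 above and 6 below. The difference, replication minus mitosis, was 0.06. With each gene averaged over its 2 arrays, it was 0.09, 0.20, 0.01 and -0.30 in pool pairs 1 to 4. Its sign in pool pair 4 was then opposite to that of the others, and its size was below the differences between pool pairs. On each single array of pool pair 1, however, the replication median lay below the mitosis median. These medians were 0.007 and 0.08 on slide 87, and 0.01 and 0.06 on slide 88. Without ORC1 and ORC2 the replication median was 0.01, and without pool pair 2 the difference was -0.02.

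In pool pair 4 the replication median lay below the mitosis median on both arrays. Averaged over these arrays, 3 of 14 replication genes and 3 of 11 G1 and S regulators were above 0, with medians of -0.23 and -0.22, against 9 of 14 mitosis genes and a median of 0.07. The replication median was -0.09 on slide 87, with 6 of 14 above 0, and -0.24 on slide 88, with 4 of 14, and the mitosis median 0.10 and 0.06. The regulators were low on slide 88 alone, with a median of -0.39 and 2 of 11 above 0, against -0.008 and 5 of 11 on slide 87. Pool pair 2 had the opposite order, with 9 of 14 replication, 8 of 11 regulator and 5 of 14 mitosis genes above 0 and medians of 0.07, 0.19 and -0.13. Each of these patterns comes from 1 pair of pools.

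Single pool pairs held larger ratios than the means. At least 1.5-fold either way was reached by 2 of 39 cell cycle genes in pool pair 1 (5.35% of all genes), by 7 in pool pair 2 (10.6%), by 3 in pool pair 3 (6.78%) and by 2 in pool pair 4 (8.89%). The 7 of pool pair 2 made up 17.9% of the cell cycle genes, with ORC2, MCM3, MCM4 and CDK4 above and MCM5, CCND2 and CDC25A below 0. The median SD over the 4 pool pairs was 0.30 for the cell cycle genes and 0.23 for all genes, and 27 of 39 had an SE above the median SE of all genes.

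**Figure D3:**
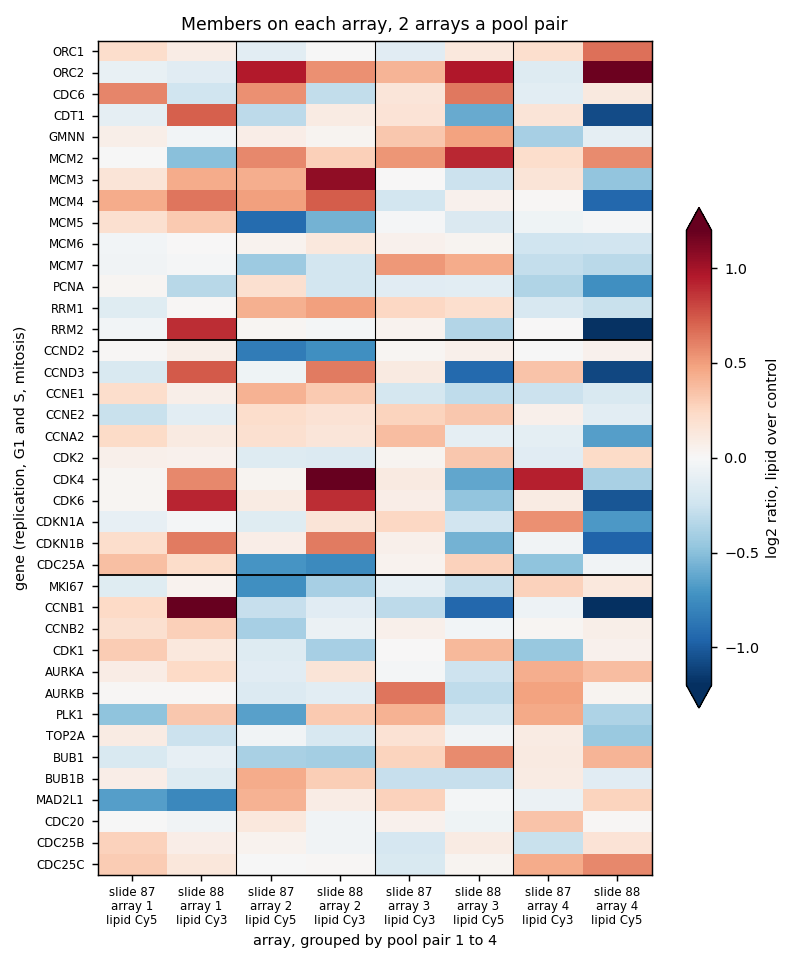
Log2 ratio of lipid over control (colour) of each cell cycle gene (rows, in role groups separated by lines) on each of the 8 arrays (columns, the 2 arrays of a pool pair side by side, with the dye of the lipid pool). CCND2, CDC25A and MAD2L1 show a low value on both arrays of 1 pool pair, while CCND3, CDK6, CDKN1B and CCNB1 are strongest on slide 88, above 0 on array 1 and below 0 on arrays 3 and 4.

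The slides were taken to carry the same pools with the dyes exchanged, so they repeat the measurement and not the biology. The sign of the mean ratio was the same on both slides for 23 of the 39 genes, where 63.9% of all genes had the same sign. It was the same for 13 of 14 replication genes, 5 of 11 regulators and 5 of 14 mitosis genes. MCM2 had 0.33 on slide 87 and 0.31 on slide 88, MCM3 0.19 and 0.20, and ORC2 0.28 and 0.64, whereas AURKB had 0.24 and -0.09.

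**Figure D4:**
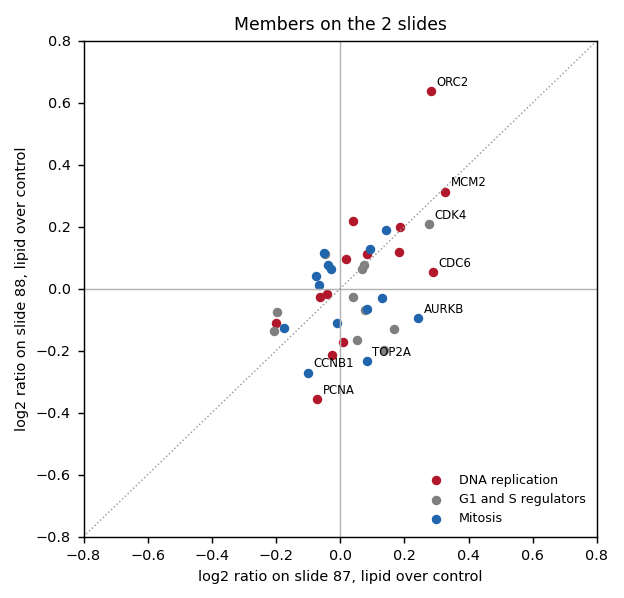
Mean log2 ratio of lipid over control of each cell cycle gene on slide 87 (x axis) and slide 88 (y axis), coloured by role group, with the line of equality dotted. ORC2 and MCM2 lie in the upper right and PCNA in the lower left, and most mitosis genes lie within 0.2 of 0 on either slide.

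On slide 88 the ratio of some of these genes followed the dye. Fitted within the slide, the dye coefficient (the part of the log2 ratio that follows Cy5 over Cy3) was below -0.5 for 9 of 39 cell cycle genes, or 23.1%, against 8.15% of all genes, and above 0.5 for 0 of 39 against 3.26%. The 9 were CDT1, MCM3, MCM4, RRM2, CCND3, CDK4, CDK6, CDKN1B and CCNB1. On slide 87 PLK1 was the 1 gene past 0.5 in either direction, 2.56% against 3.31% of all genes. Because pool pairs 1 and 2 had the lipid pool in Cy3 on slide 88 and pool pairs 3 and 4 had it in Cy5, a dye effect and a difference between these pool pairs cannot be told apart on that slide. A dye effect that differs between slides cancels in the mean of the 4 pool pairs, but it remains in the single pool pair values and in the SE of these 9 genes. For CCNB1, pool pairs 1 and 2 lay above pool pairs 3 and 4 by 1.74 on slide 88 and by 0.17 on slide 87. On slide 87 this difference was also above 0 for MCM3, MCM4 and CDKN1B (0.21, 0.58 and 0.14). It was below 0 there for CDT1, RRM2, CCND3, CDK4 and CDK6 (-0.37, -0.03, -0.34, -0.49 and -0.02). What made the slides differ was not tested.

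The levels of pools of 1 kind, measured on different arrays, differed from each other by more than the mean lipid ratio for most genes. The SD of normalised log2 intensity among the 4 control pools exceeded the size of the mean ratio for 36 of 39 genes, against 85.4% of all genes. The median SD was 0.252 among control pools and 0.246 among lipid pools, close to the 0.241 and 0.245 of all genes. For 8 of 39 genes the control pools were more than 2-fold apart, as they were for 16.8% of all genes. MCM5 was one of these, at 10.09, 10.03, 8.83 and 8.43 in the control pools and 10.34, 9.29, 8.74 and 8.40 in the lipid pools, so pools 1 and 2 were higher than pools 3 and 4 in both groups. The same held for CDC25A, at 8.30, 8.73, 7.42 and 7.46 in the control pools and 8.59, 7.99, 7.58 and 7.20 in the lipid pools. CDK1 was lowest in pool pair 1 in both groups (9.56 and 9.77) and highest in pool pair 4 (10.65 and 10.45). Both pools of a pair were hybridised on the same 2 arrays. A level that they share therefore cannot be told apart from an effect of those arrays, and this limit applies to every pool level given here.

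**Figure D5:**
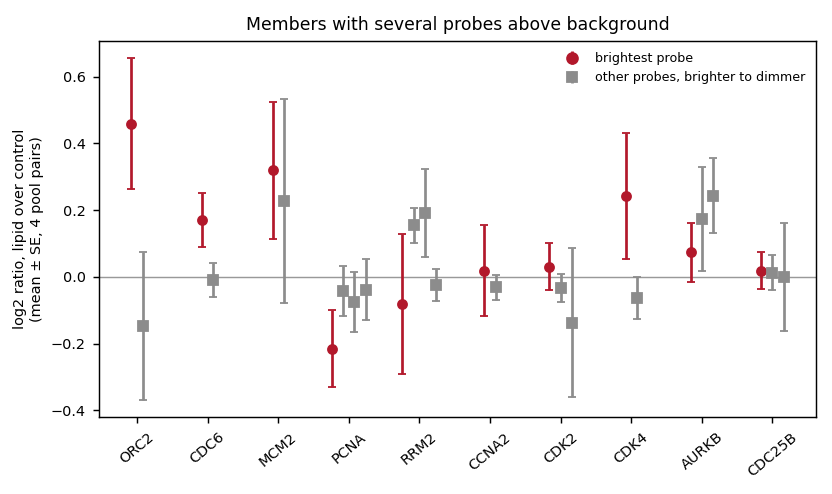
Mean log2 ratio of lipid over control (y axis, with the SE of 4 pool pairs) of each probe above background for the 10 cell cycle genes with more than 1 such probe (x axis), the brightest in red. The probes of PCNA lie below 0 and those of MCM2 and AURKB above 0, while the 2 probes of ORC2 have opposite signs at 0.46 and -0.15.

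Probes of the same gene often differed in sign. Of the 10 cell cycle genes with 2 or more probes above background, 3 had means of the same sign on every such probe. These were MCM2, PCNA and AURKB, or 30%, against 48.1% of the 2691 genes of this kind on the array. The shares were not matched for the number of probes per gene. CDC25B, with 3 probes, had 0.02, 0.01 and -0.00, so its difference in sign was far below its SE. The positions of the probes in the transcripts were not used here.

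Other genes of the same pathways were listed by textbook role and not by their ratios, but with earlier results of these data known. Of 125 such genes, 117 were on the array and 109 were measured in all 4 pool pairs. Of these, 0 were called in either direction, 6 had an unadjusted p under 0.05 (5.5%, against 5.39% of all genes), and 54 had a mean above 0, with a median of -0.00158. Among the other replication genes 18 of 38 were above 0, with a median of -0.01. RFC2, a subunit of the clamp loader that places PCNA on DNA, had -0.43 ± 0.16 (limma unadjusted p = 0.025), with -0.05, -0.28, -0.59 and -0.79 in the pool pairs and 0.09 on a second probe. LIG1, the ligase that joins Okazaki fragments, had -0.35 ± 0.17, with its lowest value, -0.84, in pool pair 4. ORC4, a further origin recognition subunit, had 0.23 ± 0.08 (second probe 0.01) and PRIM2, a primase subunit, 0.23 ± 0.10.

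The other mitosis genes split evenly, 19 of 38 above 0 with a median of -0.0036. KIF20A, a kinesin of cytokinesis, was above 0 in all pool pairs, at 0.07, 0.41, 0.59 and 0.70, a mean of 0.44 ± 0.14 (limma unadjusted p = 0.013, adjusted p = 0.994). BUB3, which binds BUB1 and BUBR1, had -0.26 ± 0.09 (second probe -0.05), and the condensin subunits SMC4 and NCAPD2 had -0.23 ± 0.11 and -0.21 ± 0.10. Among the other regulators 17 of 33 were above 0, with a median of 0.01. GADD45A, a stress-induced brake on the cycle, was below 0 in all pool pairs, at -0.16, -0.23, -0.27 and -0.31, a mean of -0.24 ± 0.03 (limma unadjusted p = 0.012, adjusted p = 0.994), with -0.11 on a second probe. MNAT1, which assembles the CDK-activating kinase, had 0.33 ± 0.11, E2F1, a transcription factor of S phase genes, -0.31 ± 0.15, and LIN52, of the DREAM complex, 0.21 ± 0.08. None of these passed the adjusted threshold.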

How the data were processed

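The deposited scanner files hold, per the file headers, the intensity of each spot in Cy3 and Cy5 as a mean foreground and a median local background. A processed value table deposited by the authors was taken to hold log2 ratios. The submitters' processing notes name limma. How that table was corrected and normalised, and its log base, is not given in the sources used here. Its columns correlated at 0.949 to 0.98 with the lipid over control ratios computed here, with medians of -0.026 to 0.019, and it was used as an alternative setting.

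Background was corrected with normexp (offset 50) and normalised by loess within each array in limma 3.58.1 (R 4.3.3), with control spots at weight 0. Loess centres each array near 0, so a change common to most genes would not appear. Spots flagged by the scanner software were left out. These touched 213 probes and 0 probes of the cell cycle genes. Background limits came from 757 negative control spots per array, and 28832 probes were kept. Arrays of the same number on the 2 slides were averaged as 1 pool pair. Deviations from the means of the dye orientation correlated at 0.622 to 0.769 between same-numbered arrays and at -0.326 to -0.0255 between others. Each probe's 4 pool pair ratios were fitted with limma (lmFit, eBayes) and tested two-sided against 0, with Benjamini-Hochberg adjustment over all kept probes and a threshold of 0.05. The SE is that of the 4 values, and p-values and 95% intervals use limma's moderated variance. Pool levels are log2 intensities after loess and Aquantile scaling, averaged over both dyes. Slides were fitted separately with a dye term. The tests were checked on simulated data in which the dye effect of a probe was the same on both slides. A dye effect that differs between slides was not covered.

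Gene names come from the platform's probe annotation, with older symbols matched through RefSeq synonyms. The members, the pathway and marker lists, the role groups and the named genes were chosen with earlier results of these data known. Pool pair values are given for the 4 genes of smallest p in each role group and for PCNA, MKI67, CDK1 and CCNB1, and means for up to 4 genes of smallest p per pathway list. Other values were chosen after they were seen. Alternatives covered background correction, normalization, filters, probe choice, left-out pool pairs, blocks and slides.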

Additional observations from a re-analysis of the deposited data

Results flagged for a closer look

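Of 62 sets of 4 pool pair values searched for a single value far from the other 3, 3 held one, and chance alone gives about 1 in 20 sets. CCND2 was at -0.791 in pool pair 2. CCNA2 was at -0.388 in pool pair 4. MAD2L1 was at -0.716 in pool pair 1. For CCND2 and MAD2L1 both arrays of the pool pair gave the low value (-0.84 and -0.74, -0.66 and -0.77), and for CCNA2 slide 87 read -0.11 and slide 88 -0.66. The dimmer CCNA2 probe measured -0.07 in pool pair 4.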

How the results depend on the processing

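The count of cell cycle genes past the threshold was 0 under every alternative run, and no alternative moved a role median by more than the spread between pool pairs. With 1 pool pair left out at a time, the replication median ran from 0.0018 to 0.12, the mitosis median from -0.01 to 0.04, the regulator median from -0.04 to 0.08 and the difference between replication and mitosis from -0.02 to 0.12. The difference kept its sign under the other alternatives and was smallest without ORC1 and ORC2 (5.842e-07), an alternative added after seeing the data, as were a background limit from the median and flagged spots kept. For the 14 named members, 260 values under alternatives gave 8 changes of sign, 4 of them for CDK1, and 0 calls. Of all probes, 1292 had an unadjusted p under 0.05, and leaving out 1 pool pair gave 915 to 2318, the highest without pool pair 1. Probes above background on all 8 arrays gave 440, because fewer probes were tested, and slide 88 alone gave 2796. For pairing, arrays treated as independent with no replicate block gave 9 probes past the threshold and 2497 at the unadjusted p, since the arrays of a pool pair then count as separate samples. A replicate block as random effect with a dye term for each slide gave 0 probes past the threshold (lowest adjusted p = 0.0651) and 2368 at the unadjusted p. Neither fit called a cell cycle gene. Signal over background limits the dim genes CDT1, CCND3, CDK6, CDKN1A, CDKN1B and PLK1.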
